A study of Homo sapiens with 6 samples.

Results

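NF-kB transcription factors and the IkB proteins that bind them were followed in GEN2.2 cells, which grow from a human plasmacytoid dendritic cell leukaemia. All probes whose platform gene symbol was NFKB1, NFKB2, REL, RELA, RELB, NFKBIA, NFKBIB, NFKBIE, NFKBIZ or NFKBID were taken. They are 10 of the 20041 genes named here, measured by 15 of 47218 probes, 8 for the 5 subunit genes and 7 for the 5 inhibitor genes. One group of 3 samples held untreated cells in log-phase culture, and the other held 3 samples of the same line treated for 2 h with ODN2006 at 1 µM. This synthetic CpG oligonucleotide is a ligand of the endosomal receptor TLR9. The comparison asks how the transcripts of the family stand early after this stimulus. All samples come from 1 malignant cell line in culture, and no control oligonucleotide was part of the comparison. Nothing in the labels states that the replicates of a group were grown apart, and the error behind each p-value could be technical in part or whole.

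NF-kB factors are dimers built from the 5 subunits. RELA, REL and RELB carry an activation domain, whereas NFKB1 and NFKB2 encode long precursors whose ankyrin repeats act like an IkB until the precursor is processed to a DNA-binding subunit. The classical IkB proteins, encoded by NFKBIA, NFKBIB and NFKBIE, hold dimers in the cytoplasm until the IkB kinase (IKK) complex marks them for degradation. NFKBIZ and NFKBID encode atypical IkB proteins, which act in the nucleus on dimers already bound to DNA. Both are counted with the inhibitor genes by family name, although the NFKBIZ product is a cofactor for secondary response genes. Several genes of the family are textbook NF-kB targets themselves, and resynthesis of the NFKBIA product is a classical feedback loop. Toll-like receptors reach this system through the adaptor MyD88, and in plasmacytoid dendritic cells it acts beside the interferon regulatory factors.

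Promoters of the family are shown first, because NF-kB genes are known to be regulated through kappaB elements. RefSeq windows (GRCh38.p14, 250 bases before to 50 after a transcription start) matched 8 of the 10 genes, with 16 starts in all. They were searched on both strands for the kappaB consensus, a run of G followed by a purine, any base, A or T, pyrimidines and a closing run of C. It occurred in 10 of the 16 windows and in 7 of the 8 genes. Among all 35116 windows of this length, 5.91% held it, as did 7.09% of 27305 genes. The upstream 250 bases of 5 outermost starts are printed 5′ to 3′ on the gene's strand, with matches in capitals, for the genes whose changes are set side by side later.
NFKBIA (chr14:35404750-35404999, minus strand): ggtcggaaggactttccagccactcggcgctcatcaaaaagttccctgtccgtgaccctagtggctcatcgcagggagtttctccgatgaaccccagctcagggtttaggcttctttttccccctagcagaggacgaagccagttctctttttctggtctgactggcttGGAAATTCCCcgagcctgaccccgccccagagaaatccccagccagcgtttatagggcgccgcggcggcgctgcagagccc
NFKBIZ (chr3:101827740-101827989, plus strand): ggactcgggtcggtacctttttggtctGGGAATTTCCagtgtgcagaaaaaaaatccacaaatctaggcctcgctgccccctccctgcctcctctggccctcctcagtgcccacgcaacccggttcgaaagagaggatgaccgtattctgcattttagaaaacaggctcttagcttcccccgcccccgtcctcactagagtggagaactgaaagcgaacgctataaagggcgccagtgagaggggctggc
NFKB1 (chr4:102501109-102501358, plus strand): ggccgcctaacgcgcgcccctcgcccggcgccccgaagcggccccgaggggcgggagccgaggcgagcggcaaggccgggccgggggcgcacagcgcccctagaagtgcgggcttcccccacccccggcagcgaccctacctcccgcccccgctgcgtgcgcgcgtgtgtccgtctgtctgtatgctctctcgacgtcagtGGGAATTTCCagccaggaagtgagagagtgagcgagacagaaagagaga
REL (chr2:60881324-60881573, plus strand): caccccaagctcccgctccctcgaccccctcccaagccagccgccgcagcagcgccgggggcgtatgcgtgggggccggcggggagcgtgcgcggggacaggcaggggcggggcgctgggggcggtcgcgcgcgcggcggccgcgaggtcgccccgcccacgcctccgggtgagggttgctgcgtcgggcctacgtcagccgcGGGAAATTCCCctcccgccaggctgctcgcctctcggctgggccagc
RELA (chr11:65663858-65664107, minus strand): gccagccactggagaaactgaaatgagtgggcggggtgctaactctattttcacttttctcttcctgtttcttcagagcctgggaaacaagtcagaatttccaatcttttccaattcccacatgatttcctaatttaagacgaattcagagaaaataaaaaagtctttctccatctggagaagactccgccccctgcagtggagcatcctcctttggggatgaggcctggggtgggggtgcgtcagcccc

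In REL 2 matches on opposite strands overlapped, beginning 47 and 46 bases before the start. The match began 49 bases before the start in NFKB1, 81 in NFKBIA and 223 in NFKBIZ. RELA had no match at either of its 2 starts. Searched on either strand, the word GGGAATTTCC was found in NFKB1, REL, NFKBIA, NFKBIB and NFKBIZ, in 1 window each. These are 5 of the 16 windows, and 0.145% of all windows held it. This word was picked out after the matches had been seen. A choice of the other matches is shown in 30 bases of context, since NFKB2 and NFKBID carry other spellings and NFKBIB is set beside RELA later.
NFKBIB, start 2, 28 bases upstream: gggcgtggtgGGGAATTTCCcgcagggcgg
NFKB2, start 2, 107 bases upstream: gaaacgtcatGGGAATTCCCccctccgggg
NFKB2, start 2, 78 bases upstream: gggccgagaaGGGGCTTTCCcggccctgag
NFKB2, start 3, 21 bases upstream: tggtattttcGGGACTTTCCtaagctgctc
NFKBID, start 3, 198 bases upstream: gggctgagcaGGAATTCCCCttgcgcgggg
Such matches are a description of letters, not of binding. Windows of RELB and NFKBIE were not used here. The member windows held between 51.3% and 79.0% G and C.

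**Figure D1:**
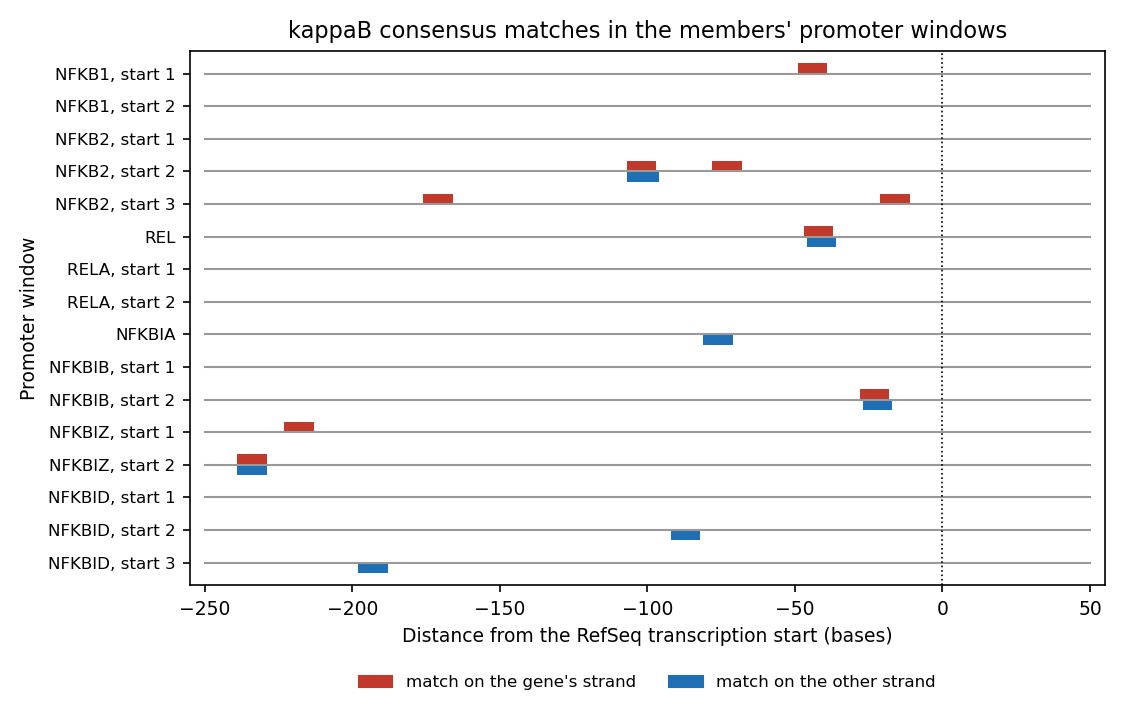
Distance of each kappaB consensus match (box of 10 bases) from the RefSeq transcription start, in bases, for the 16 windows of 8 genes. Boxes above the line are on the gene's strand and boxes below it on the other strand. RELA has none in either window, and NFKB2 has matches at 2 of 3 starts.

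Between 13454 and 15447 probes were detected per array (detection p under 0.01), and arrays of 1 group correlated at 0.983 to 0.991 across tested probes. The values are log2 intensities, normalized over the 6 arrays together, so a difference of 1 is a 2-fold change. Levels are comparable between arrays for 1 probe and not between probes. They average over all cells of a culture, so more cells with a transcript and more of it per cell cannot be told apart. TLR9 was detected on all 6 arrays and differed by -0.09 ± 0.17 (SE), a difference that did not pass. Of 12 markers of plasmacytoid dendritic cells, 10 were detected on all 6 arrays, CLEC4C and IL3RA among them, and PTCRA on none. Of 8 monocyte and conventional dendritic cell markers 5 were detected on all arrays, LYZ and CD14 included, and S100A8 and CLEC9A on none. Their summed raw intensity was 11330 to 12440 on untreated and 9548 to 11801 on ODN2006 arrays, and no tested marker passed. T and NK cell markers were detected on all arrays for 2 of 6, CD3G and NKG7, and CD3D, CD3E, CD2 and KLRD1 on none. B cell markers were detected on all arrays for 2 of 3 genes with a probe, CD79A and CD79B, and red cell and platelet markers for none of 4.

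A gene rose or fell if its limma test, adjusted by Benjamini-Hochberg over all 13816 tested probes, gave p under 0.05. By this rule 8 of the 10 genes rose, and RELA and NFKBIB did not pass. Each of the 10 had a change above 0. Of all tested genes, 61.1% had a change below 0.00027. Among all 8706 tested genes, 3.41% rose and 1.81% fell. The test covered 13 of the 15 probes, those detected on all 3 arrays of at least 1 group, and every gene entered it by at least 1 probe. Of these 13, 11 rose, as did 3.25% of all tested probes. However, 3 of the 11, the REL probe and the dimmer ones of NFKBIB and NFKBIZ, entered only through their detection after ODN2006, where they are high, so their calls are no support for a rise. For 9 genes the brightest tested probe, which stands for the gene, was detected on all 6 arrays. REL is the gene whose entry rested on the ODN2006 arrays.

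**Figure D2:**
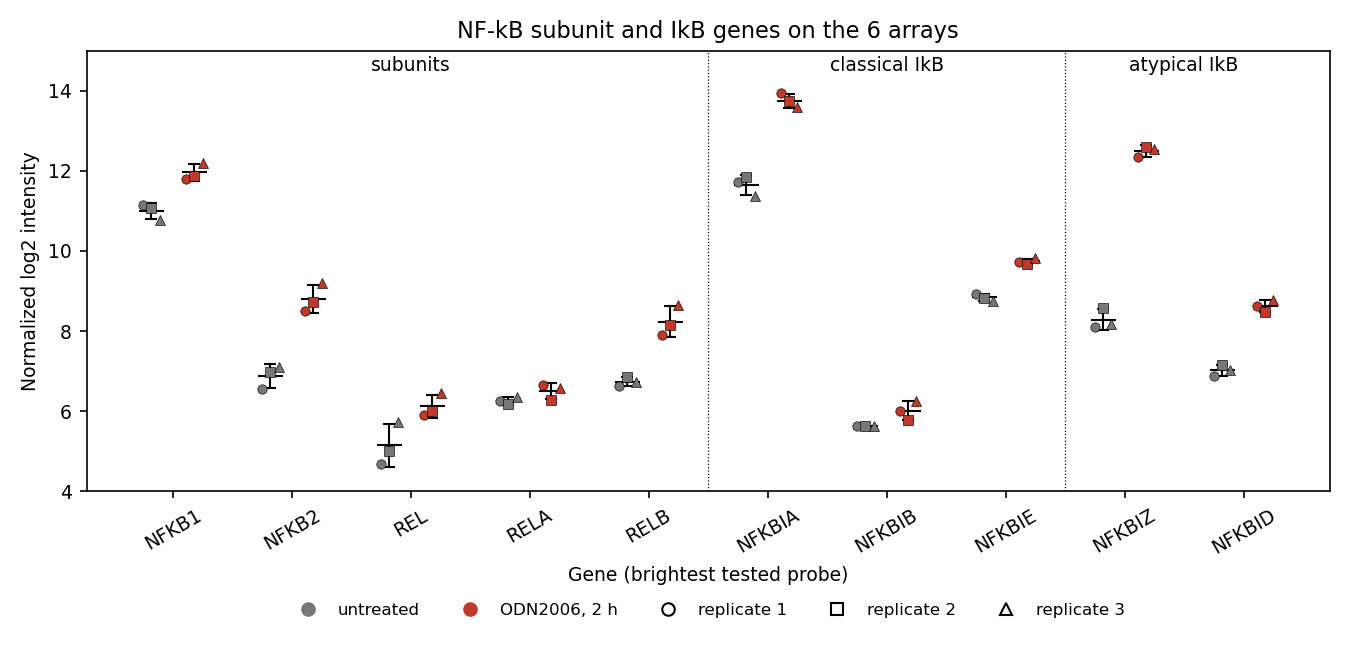
Normalized log2 intensity of the brightest tested probe of each gene on the 3 untreated (grey) and 3 ODN2006 (red) arrays. Symbols mark the replicate and bars the mean ± SD, and heights cannot be compared between genes. The groups overlap for RELA and for no other gene. REL entered the test only through the ODN2006 arrays. Of all tested genes, 8.48% had every ODN2006 array above every untreated array.

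NFKB2 rose most among the subunit genes. It encodes the precursor of the alternative pathway. Its brightest probe had 6.54, 6.98 and 7.10 on the untreated arrays and 8.50, 8.72 and 9.20 on the ODN2006 arrays. The groups lay well apart, and the change was 3.82-fold (log2 change 1.93 ± 0.20 SE, adjusted p = 7.10e-05). A second probe gave 6.64, 6.69 and 6.73 untreated and 7.80, 8.14 and 8.50 after ODN2006, a log2 change of 1.46 ± 0.18 (adjusted p = 2.50e-04). Thus the gene rose at 2 probes, annotated to different transcripts. The remaining NFKB2 probe was detected on no array and not tested.

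RELB, the usual partner of the processed NFKB2 product, followed. It had 6.62, 6.85 and 6.74 on untreated and 7.90, 8.16 and 8.65 on ODN2006 arrays. Every stimulated array was above every untreated one, with a 2.83-fold change (1.50 ± 0.19, adjusted p = 3.07e-04). So the NFKB2 and RELB genes, which code for the dimer of the alternative pathway, had the largest changes among the subunits.

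NFKB1, the precursor gene of the canonical pathway, was bright before the stimulus. Its values were 11.15, 11.08 and 10.78 untreated and 11.81, 11.88 and 12.19 after ODN2006. The groups did not overlap, and the change was 1.95-fold (0.96 ± 0.16, adjusted p = 0.00359).

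REL encodes c-Rel, an activating subunit found mainly in blood cells. Its brighter probe had 4.69, 5.01 and 5.74 untreated, detected on 1 of these 3 arrays, and 5.90, 6.01 and 6.45 after ODN2006. The gap between the highest untreated and the lowest stimulated array was narrow. The rise was 1.97-fold (0.98 ± 0.24, adjusted p = 0.0404), with a dim untreated level that reached into background. Of 6 fits that each left out 1 array, 5 lost the call. Leaving out untreated replicate 1 gave an adjusted p of 0.128, and untreated replicate 2 one of 0.163. With ODN2006 replicate 1, 2 or 3 left out it was 0.0692, 0.0816 and 0.143. The call held when untreated replicate 3, the brightest of its group, was left out (0.00364). It was also lost without background correction, with median scaling and with dim probes kept in the test (0.165, 0.0997 and 0.241). In the remaining alternatives that included REL the call held. There the adjusted p ran from 0.00148 with the replicate number as a block to 0.0480 with an offset of 50. The other REL probe was detected on no untreated array and on 2 ODN2006 arrays, and was not tested. Its values were 4.40, 4.93 and 5.03 untreated and 5.09, 6.06 and 6.03 after ODN2006, and no fold is given for it.

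RELA, the main activating subunit of the canonical pathway, stood apart by not passing. It had 6.25, 6.17 and 6.36 untreated and 6.67, 6.28 and 6.57 after ODN2006. The groups overlapped, and the change was 1.18-fold with a 95% interval of 0.941-fold to 1.49-fold (0.24 ± 0.15, adjusted p = 0.544). A rise of 2-fold lies outside this interval, which depends on the background correction. The only RELA probe was dim, with a raw intensity of 158 to 179 on untreated arrays, whose medians over all probes were 107 to 121. Without background correction its log2 change was 0.11.

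Among the inhibitors, NFKBIA had the largest change of the classical IkB genes. It encodes IkB alpha. Values were 11.73, 11.85 and 11.37 on untreated and 13.93, 13.74 and 13.58 on ODN2006 arrays. The 4.30-fold rise (2.10 ± 0.17, adjusted p = 5.76e-06) started from a bright level. The stimulated values came close to 14.44, the highest of any probe on any array.

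NFKBIE, the IkB epsilon gene, had 8.94, 8.83 and 8.76 untreated and 9.72, 9.67 and 9.82 after ODN2006. Replicates lay close together, and the change was 1.86-fold (0.90 ± 0.14, adjusted p = 0.00166). It was less than that of NFKBIA, and the 95% intervals of the folds, 1.51 to 2.29 and 3.33 to 5.53, did not overlap.

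NFKBIB, the IkB beta gene, had 2 tested probes. The brighter one had 5.62, 5.63 and 5.62 untreated and 6.01, 5.77 and 6.25 after ODN2006. Although the groups did not overlap, its change did not pass (0.39 ± 0.15, adjusted p = 0.248). The dimmer probe was detected on no untreated array and on all 3 ODN2006 arrays, and rose at least 1.70-fold (adjusted p = 0.00365). Its values were 4.83, 4.84 and 5.10 untreated and 5.99, 5.66 and 6.35 after ODN2006. Since this probe entered the test only through the ODN2006 arrays, its call is not independent of the filter. The same holds for the mean of both probes, with which the gene passed (0.73 ± 0.16, adjusted p = 0.0222). The probe detected on all arrays gave no call. Its untreated values were also dim, not far above the lowest detected values of those arrays, 5.21 to 5.26.

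The atypical inhibitors both rose. NFKBIZ, which encodes IkB zeta, a nuclear cofactor for secondary response genes, changed most of all 10 genes. It had 8.10, 8.58 and 8.18 on untreated and 12.34, 12.61 and 12.55 on ODN2006 arrays. This is an 18.6-fold rise (95% interval 14.5-fold to 23.9-fold, adjusted p = 8.79e-09), rank 12 among all 8706 genes by log2 change. On the raw scale, before any correction, its intensity was 390, 437 and 367 untreated and 5374, 6079 and 6791 after ODN2006, so the groups lay apart on that scale too. A second probe, annotated to another NFKBIZ transcript, was dim, detected on 1 untreated and 3 ODN2006 arrays, and so entered the test through the latter. It had 5.38, 4.65 and 5.09 untreated and 6.72, 6.67 and 6.63 after ODN2006, a log2 change of 1.63 ± 0.18 (adjusted p = 1.18e-04). Its untreated level lies near background, and the difference in change between the probes was not tested.

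NFKBID, the gene of IkBNS, had 6.88, 7.15 and 7.02 untreated and 8.62, 8.48 and 8.77 after ODN2006. The groups were far apart relative to their spread, with a 3.03-fold rise (1.60 ± 0.15, adjusted p = 2.12e-05). BCL3 encodes a further atypical IkB protein and is not one of the 10. It had 7.97, 8.07 and 7.99 untreated and 9.30, 9.28 and 9.57 after ODN2006 (1.38 ± 0.14, adjusted p = 6.36e-05). These 3 atypical IkB genes, NFKBIZ, NFKBID and BCL3, thus rose at least 2-fold, as did 2.09% of all tested genes.

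**Figure D3:**
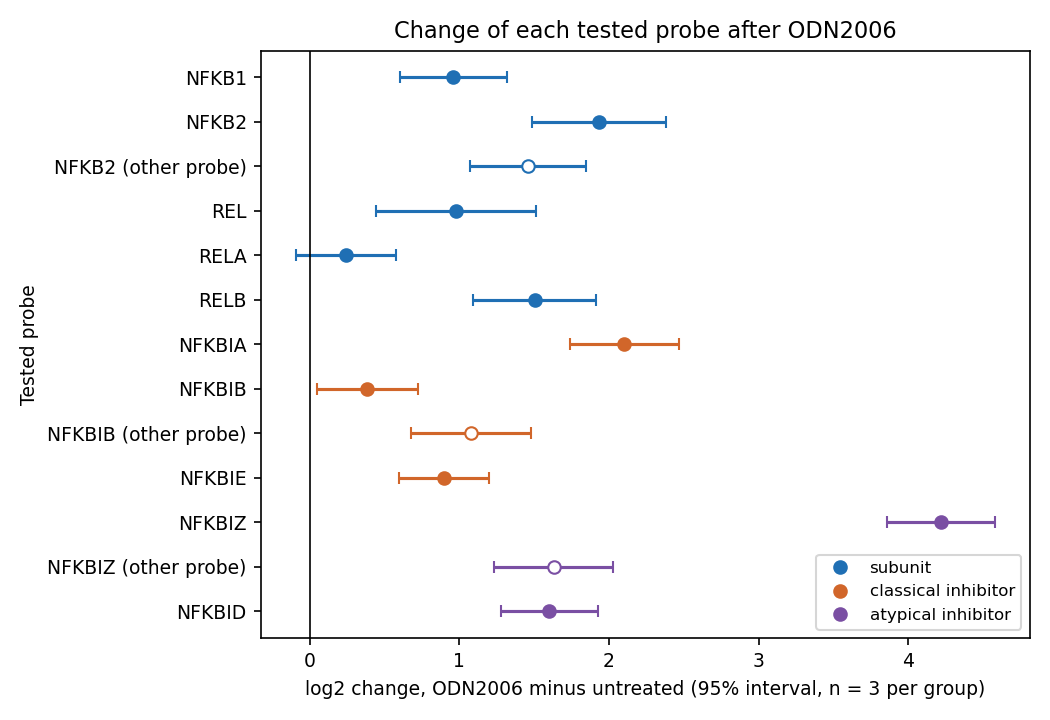
Log2 change after ODN2006 of each of the 13 tested probes with its 95% interval (n = 3 per group). Filled points stand for the gene and open points are its other probes. NFKBIZ is highest at 4.22, and the interval of RELA spans 0.

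Set against each other, 4 of 5 subunit and 4 of 5 inhibitor genes rose, 2 subunit and 3 inhibitor genes by at least 2-fold. The equal count rests on REL, which entered the test only through its detection after ODN2006, so its call is no support for a rise. In 9 of 16 alternatives 3 subunit and 4 inhibitor genes rose, in 6 the counts were 4 and 4, and with the mean of a gene's probes they were 4 and 5. The median log2 change was 0.98 among subunits and 1.60 among inhibitors, against -0.05 among all tested genes. Taken apart, the 3 classical IkB genes had a median of 0.90, below that of the subunits, and the 2 atypical ones had 2.91. The higher pooled median therefore does not hold for the classical IkB genes alone. Every ODN2006 array lay above every untreated array for 4 subunit and 5 inhibitor genes, as for 8.48% of all tested genes. REL is again among these 4, with the same limit. The classes interleaved in the order of change, which ran NFKBIZ, NFKBIA, NFKB2, NFKBID, RELB, REL, NFKB1, NFKBIE, NFKBIB and RELA. Of 25 pairs of an inhibitor with a subunit, the inhibitor had the larger change in 16. The 95% intervals were apart in 13 pairs, 10 with the inhibitor and 3 with the subunit higher. The pairs reuse the same genes and are not separate observations. Most of the 10 came from NFKBIZ, above all 5 subunit genes, and NFKBIA, above NFKB1, REL and RELA.

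The distance between the class medians was 0.62 on the log2 scale, and it is a description of 5 genes against 5, without a test. Between arrays of the same replicate number, the inhibitor median exceeded the subunit median by 0.53, 0.32 and 0.33. The subunit median was the value of REL, the least certain of the called genes. Without background correction the distance was 0.15, and with only probes detected on all 6 arrays, which leaves REL out, it was 0.37. With all 5 inhibitor genes pooled, the direction was the same in all 16 alternatives. The classical IkB genes were not set apart in these. Over the same settings NFKBIZ changed by 2.92 to 4.38, above the other 9 genes in each, and RELA had 0.11 to 0.36.

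**Figure D4:**
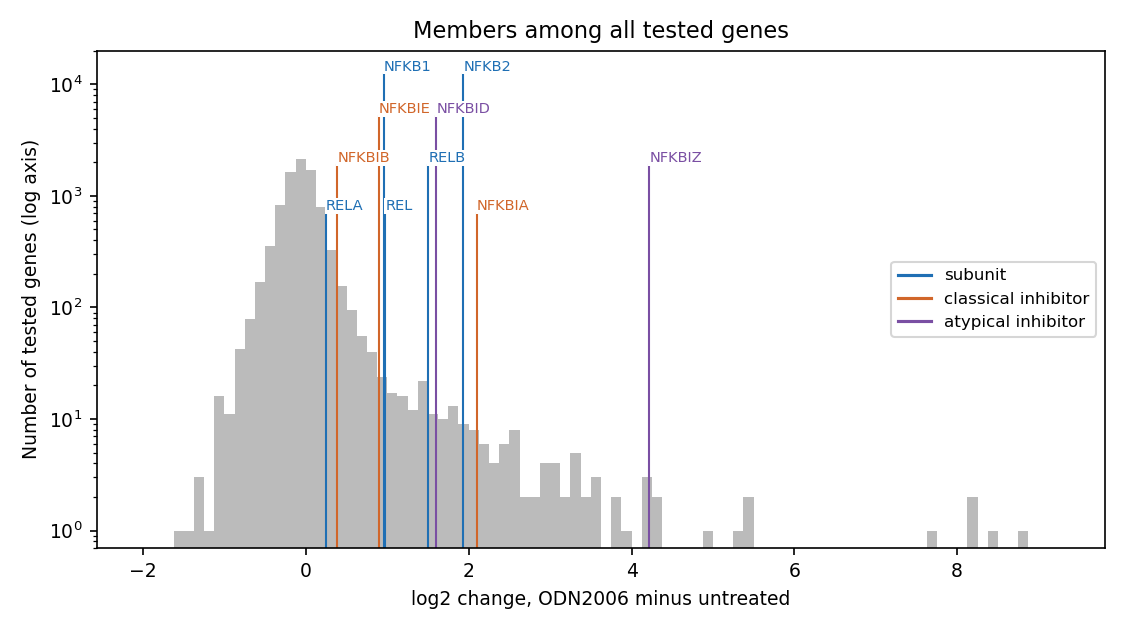
Number of tested genes (log axis) by log2 change after ODN2006, with a line at each of the 10 genes. All 10 lie to the right of 0, from 0.24 for RELA to 4.22 for NFKBIZ. Of all tested genes, 61.1% had a change below 0.00027. REL entered the test only through the ODN2006 arrays.

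ODN2006 replicate 3 was the highest of its group for 4 of the 5 subunit genes and RELA was the exception, while among inhibitors it was highest for 3 of 5. REL is among these 4. How many of all tested genes were highest on this array was not counted, so a trait of the array and one of the genes cannot be told apart. Relative to the untreated mean, the median of the subunit genes was 0.81, 0.88 and 1.31 on ODN2006 arrays 1, 2 and 3. That of the inhibitor genes was 1.60, 1.46 and 1.75. Without ODN2006 replicate 3, NFKB1, NFKB2 and RELB still rose and the subunit median was 0.84. All 10 genes, the uncalled RELA and NFKBIB among them, were higher after ODN2006 in each of the 3 same-numbered pairs. The share of all tested genes for which this holds was not computed, so the count is a description only. It includes REL, which entered the test only through the ODN2006 arrays.

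Other genes of the pathway were set beside the family. Of 74 listed genes 54 were tested. Their median log2 change was 0.03, and 8 rose while 1 fell and 45 stayed short of the threshold. Over all tested genes 3.41% rose and 1.81% fell in this fit, shares that also stand beside the counts of each list below. The 1 fall among 54 genes is near the share of all genes. With the replicate number as a block 9 rose and 2 fell, and over all tested genes 4.65% rose and 4.11% fell in that fit. The kinase genes at the core did not pass. IKBKB and CHUK, the catalytic IKK subunits, had log2 changes of 0.00 (95% interval -0.36 to 0.36) and -0.01 (-0.34 to 0.31). The scaffold gene IKBKG had -0.06 (-0.36 to 0.25), so a 2-fold change lies outside each of these intervals. MAP3K14, the kinase of the alternative pathway, had 0.08 (-0.26 to 0.43).

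Of 13 tested genes for the IKK complex and upstream kinases, 2 rose. MAP3K8, which encodes a MAP kinase kinase kinase bound to the NFKB1 precursor, changed by 2.59 ± 0.15 (adjusted p = 3.40e-07). IRAK2, a kinase of the Toll-like receptor complex, changed by 1.27 ± 0.16 (adjusted p = 2.83e-04). MAP3K1 had -0.48 and did not pass (adjusted p = 0.0931), but it passed with the replicate block (0.0298).

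In the list of deubiquitinases and ubiquitin-binding restrainers, 3 of 10 tested genes rose and 1 fell, and not all of them act on ubiquitin. TNFAIP3, the deubiquitinase A20, and ZC3H12A, an RNase that degrades cytokine transcripts and that the list held beside them, changed by 3.17 ± 0.15 and 3.02 ± 0.18 (adjusted p = 4.10e-08 and 4.36e-07). TNIP2, a partner of A20, changed by 1.08 ± 0.17 (adjusted p = 0.00211). USP21 fell by 0.65 on the log2 scale (adjusted p = 0.0198), and its other probe had -0.07. That call was lost with the mean of both probes (adjusted p = 0.171), in the fits lacking untreated replicate 2 (0.114), untreated replicate 3 (0.0628) or ODN2006 replicate 2 (0.0813). CYLD, another deubiquitinase, had 0.72 and did not pass (adjusted p = 0.0531), but it passed with the replicate block (0.0146).

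Among 12 tested genes for ubiquitin ligases and IkB turnover, BIRC2, an inhibitor of apoptosis that ubiquitinates kinases of the pathway, rose (0.72 ± 0.17, adjusted p = 0.0274). Its other probe, dimmer but detected on all arrays, passed as well (0.87 ± 0.17, adjusted p = 0.0110). The call of the brighter probe was lost when untreated replicate 1 or 2 was left out (adjusted p = 0.0853 and 0.129). It was likewise lost for ODN2006 replicate 2 or 3 (0.0574 and 0.113). Median scaling and keeping dim probes ended it as well (0.110 and 0.0987). Among 10 co-activator and co-repressor genes SIRT1, a deacetylase that acts on the RELA product, rose by 0.86 ± 0.16 (adjusted p = 0.00563). Of the 9 tested IkB-like and NF-kB-binding genes only BCL3 passed.

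**Figure D5:**
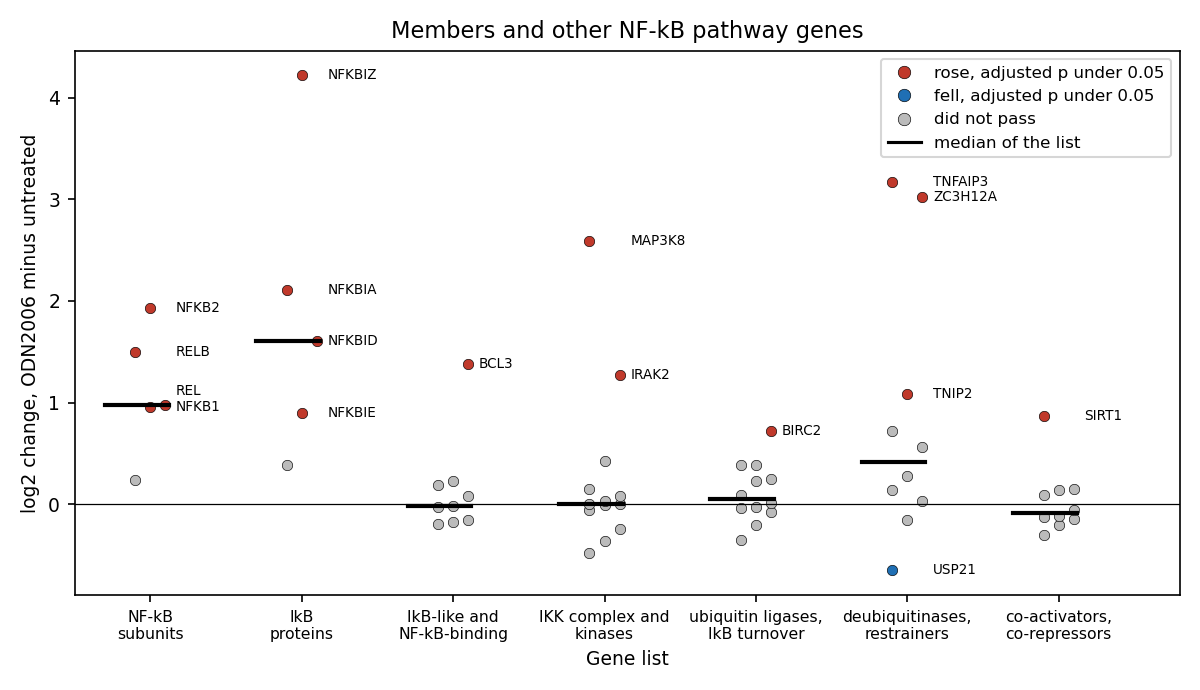
Log2 change of the 5 subunit genes, the 5 IkB genes and 54 other pathway genes in 5 lists. Red points rose, the blue point fell, grey points did not pass, and a bar marks each list's median. The medians are 0.98 and 1.60 for the subunits and IkB genes and between -0.09 and 0.42 for the other lists.

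Promoter letters and changes can be set side by side for the genes with a window. NFKB1, REL, NFKBIA and NFKBIZ share the word GGGAATTTCC and changed by 0.96, 0.98, 2.10 and 4.22. NFKBIB also holds it, and its brighter probe had 0.39. NFKB2 and NFKBID, with other spellings of the consensus, had 1.93 and 1.60. RELA, without a match, had 0.24. With 8 genes this is a description only.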

How the data were processed

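The authors deposited linear probe intensity for 6 arrays without normalization, per the file headers. Detection p-values from the scanner software were deposited beside each signal. A further deposited table holds log2 values, for which the submitters' processing notes name limma. The version and steps are not given in the sources used here. In that table, probes detected on no array differed between groups by a median of -0.45 (0.00 when all arrays were normalized together), so it served as an alternative only.

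Intensities were background-corrected by normexp (negative controls inferred from detection p, offset 16) and quantile-normalized over the 6 arrays with limma 3.58.1 in R 4.3.3. Testing required detection p under 0.01 on each of the 3 arrays of a group, and 13816 probes met this. Of all probes, 30107 had 1 gene symbol, 8 had several and 17103 had none here. Symbols outside the 10 genes were updated through gene IDs with RefSeq (GRCh38.p14). The two-sided limma test (lmFit, eBayes) had no covariates and was adjusted by Benjamini-Hochberg over tested probes. The fit was tested on simulated data. A bound sets a probe detected on no untreated array at the higher, per array, of its own value and the lowest detected signal. The number of arrays limits the precision.

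The genes and lists were chosen with earlier results of these data known. Named are all 10 genes, BCL3, the checks TLR9, GAPDH and ACTB, and up to 4 called genes per pathway list with the largest change. IKBKB, CHUK, IKBKG, MAP3K14, MAP3K1 and CYLD were named after their values were seen. Of the pathway genes listed, 8 were not detected on all arrays of a group and 12 were not analysed here. Deviations from the group means correlated between same-numbered arrays at 0.41, 0.35 and 0.46 and between other pairs of arrays of different groups at -0.11 or less, so the replicate numbers, which come from the sample titles, were taken to pair the samples by the data. A fit with that block was an alternative. The others were no background correction, an offset of 50, median scaling, the deposited values, no filter and a stricter one, the mean of a gene's probes, a trended and robust prior, array weights and leaving out each array. Promoter windows came from RefSeq, and protein sequences were not analysed here.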

Additional observations from a re-analysis of the deposited data

How the results depend on the processing

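Signal over background sets the limit here, with 28.5% to 32.7% of probes detected on an array. REL, both probes of NFKBIB and the dimmer probe of NFKBIZ lie near that limit. For the 9 genes other than REL, 143 of 144 refits left the call as it was, and the exception was NFKBIB with the mean of its probes. REL kept its call in 7 of 15. The subunit median was 1.23 with the stricter filter and 0.84 to 1.26 with 1 array left out. The inhibitor median was 1.08 without background correction. The distance between the class medians was then 0.15. It was 0.44 with an offset of 50, 0.37 with the stricter filter, 0.45 with array weights and 0.35 to 0.68 with 1 array left out.

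Other pathway genes that fell numbered 2 without background correction, with an offset of 50 or with the replicate block, 0 with the mean of a gene's probes, and 0 to 1 with 1 array left out, in place of 1. Over all genes the falls numbered 104 with median scaling, 75 without a filter, 358 with the replicate block and 51 to 116 with 1 array left out, in place of 158. The block changed no call of the 10 genes. The uncalled difference of ACTB, a reference gene, was 0.018 with the mean of its probes. Over the fits that left out 1 array TLR9 lay between -0.24 and 0.032, GAPDH between -0.18 and 0.023 and ACTB between -0.090 and 0.0011. The causes were not tested.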
